A study of Mus musculus with 7 samples.

Results

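The let-7 family was followed in mouse sarcoma cells depleted of the retinoblastoma protein, Rb. It is represented by every row of the deposited miRNA table whose name starts with mmu-let-7: 10 rows, beside 242 other mouse miRNAs. Of these, 8 are the abundant (major) arms mmu-let-7a, mmu-let-7b, mmu-let-7c, mmu-let-7d, mmu-let-7e, mmu-let-7f, mmu-let-7g and mmu-let-7i, and 2 are the opposite arms of the hairpin, mmu-let-7a* and mmu-let-7d*, all written below without the species prefix. The array carries 15 mmu-let-7 entries among 696 mouse miRNAs, and the other 5 are described after the table rows.

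The cells, called 53KOSTS, came from a soft tissue sarcoma of p53 knockout mice, so p53 was absent from all groups, controls included. Control primary cells (2 arrays) carried the Non-target shRNA vector, and primary Rb-depleted cells (2 arrays) carried an shRNA against Rb. Both were selected with puromycin and grown in monolayer in medium with 10% serum. Secondary Rb-depleted cells (3 arrays) were retrieved from spheres that Rb-depleted cells formed in serum-free methylcellulose with EGF, bFGF and B27, and were passaged in monolayer before RNA was taken. A single shRNA against Rb is given for these arrays. No array of control cells taken through sphere culture was analysed here, so Rb depletion and sphere passage cannot be told apart in the comparison of secondary with control cells. Rb mRNA is not measured by a miRNA array, so the depletion could not be checked in these samples. Nothing says that replicate arrays came from separate cultures, and p-values then measure only the spread between arrays, which may be technical.

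let-7 was found in the nematode worm as a regulator of developmental timing, and its mature sequence is nearly identical from worms to mammals. In mammals the mature family is scarce in embryonic stem cells, where LIN28 proteins bind the precursor and block its maturation, and it becomes abundant as cells differentiate. Its known targets include the messages of Ras proteins, Myc and the chromatin protein Hmga2, for which it is regarded as a tumour-suppressor family.

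The mature sequences, taken from RefSeq (GRCm38.p6), are shown because the members differ by so few bases. All 10 rows were matched. Capitals mark the seed, bases 2 to 8, which directs target recognition.

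let-7a: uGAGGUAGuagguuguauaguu
let-7f: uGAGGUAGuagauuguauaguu
let-7c: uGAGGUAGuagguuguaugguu
let-7i: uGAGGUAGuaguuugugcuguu
let-7b: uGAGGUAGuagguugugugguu
let-7d: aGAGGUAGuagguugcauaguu
let-7g: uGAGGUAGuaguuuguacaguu
let-7e: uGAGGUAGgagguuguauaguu
let-7a*: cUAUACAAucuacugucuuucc
let-7d*: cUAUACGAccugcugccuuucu

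The 8 major arms are each 22 bases long and share the seed GAGGUAG. Counting from the 5′ end of let-7a, let-7f differs by G12A, let-7c by A19G and let-7e by U9G. let-7b differs from let-7a by A17G and A19G, and therefore from let-7c by a single base. let-7d differs by U1A and U16C, let-7g by G12U and U18C, and let-7i by G12U, A17G, U18C and A19U. Among the 28 pairs of major arms, 4 differ by 1 base, 8 by 2 bases and 8 by 3 bases. The array reads each major arm with 2 probes, and hybridization of a probe to a sister miRNA that differs by 1 base was not tested. The star arms have seeds of their own, UAUACAA for let-7a* and UAUACGA for let-7d*. The sequence of let-7a* is also the 3′ arm of a let-7c hairpin (Mirlet7c-2), so its signal cannot be assigned to the let-7a-1 hairpin alone.

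Several members are made from more than 1 hairpin, and most hairpins lie in clusters. Loci are given in NCBIM37, from a match of the RefSeq hairpin to that genome. The let-7a-1, let-7f-1 and let-7d hairpins lie together on the minus strand at chr13:48633548-48633641, chr13:48633198-48633286 and chr13:48631381-48631483, with no GENCODE gene other than miRNAs over them. A second let-7a hairpin, let-7a-2, lies at chr9:41344799-41344894 in an intron of the noncoding gene D230004N17Rik, 5211 bases from miR-100. A second let-7f hairpin, let-7f-2, lies at chrX:148346889-148346971 in an intron of Huwe1, 785 bases from miR-98. let-7c is made from chr16:77599902-77599995, 656 bases from miR-99a, and from chr15:85537033-85537127, 621 bases from let-7b at chr15:85537749-85537833. let-7e lies at chr17:17967316-17967408 between miR-99b, 94 bases away, and miR-125a, 367 bases away. let-7g lies at chr9:106081171-106081258 in an intron of Wdr82, and let-7i at chr10:122422696-122422780 with no other gene annotated over it.

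The array is a 1-colour Agilent mouse miRNA array, and each array held 1 labelled RNA. The scanner software sums the brightness of the probes of a miRNA into a total gene signal, and the authors quantile-normalized its log2 value, which forces the same distribution of values onto all arrays. Between 258 and 287 mouse miRNAs were detected per array. Of the lists of cell type markers, 5 of 5 mesenchymal miRNAs were detected on all arrays (summed signal 7436 to 10848). The miR-200 family of epithelia was detected on 0 of 7 arrays for 5 of 5 members, as were 6 of 6 miRNAs of pluripotent cells of the miR-290 and miR-302 groups. Of 5 haematopoietic miRNAs only miR-451a was detected, on 1 array of primary Rb-depleted cells. Of 4 skeletal muscle miRNAs only miR-206 was detected, on all arrays. A slide was shared by the 4 arrays grown only in monolayer and the first sphere-derived one, and the other 2 sphere-derived arrays lay on another slide. Without normalization the median log2 difference from control over all miRNAs of the table was -0.26 in primary Rb-depleted and -0.46 in secondary Rb-depleted cells, and normalized differences are relative to that shift.

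The major arms were among the brightest miRNAs of these cells and their order hardly varied. Before normalization, let-7f, the brightest, had a total gene signal of 7704 and 8794 on the control arrays, 8120 and 7473 in primary Rb-depleted cells, and 7937, 6675 and 6892 in secondary Rb-depleted cells. let-7e, the dimmest major arm, had 1825 and 2020 in control cells, 2035 and 1821 in primary Rb-depleted cells, and 1643, 1400 and 1362 in secondary cells. Ranked among all miRNAs of the table on each array, let-7f lay between place 7 and place 12, and let-7e between place 36 and place 44. The 8 major arms together held 6.62% to 8.23% of the summed signal of the table, and no let-7 spot was saturated.

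On total gene signal the order was let-7f, let-7a, let-7c, let-7i, let-7b, let-7d, let-7g, let-7e. let-7f exceeded let-7a on 7 of 7 arrays, by 0.06 to 0.12 on the log2 scale within an array. let-7a exceeded let-7c on 7 of 7 arrays by 0.33 to 0.49, and let-7b exceeded let-7d on 7 of 7 by 0.69 to 0.97. The neighbours let-7c and let-7i were not separated on every array, since let-7c was the higher on 6 of 7 with differences from -0.02 to 0.19. let-7g and let-7e likewise crossed, with let-7g higher on 6 of 7 arrays and differences from -0.01 to 0.46. The star arms lay far below: let-7e exceeded let-7a* by 5.74 to 6.65. Signals of different probes need not be proportional to copy number, so this is an order of signals.

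**Figure D1:**
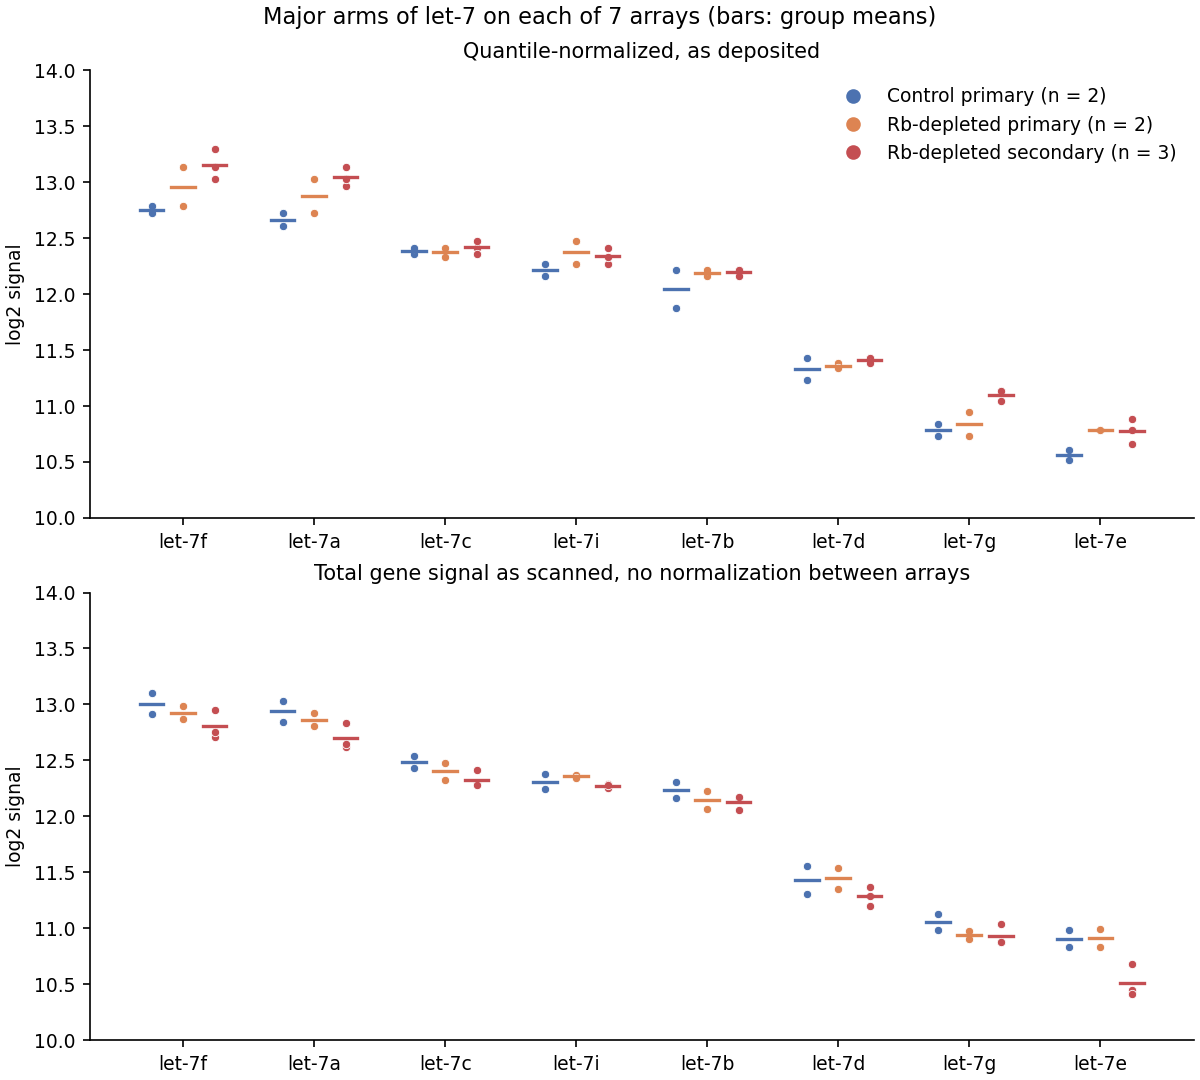
The log2 signal of the 8 major arms of let-7 on each of 7 arrays, after quantile normalization (upper panel) and as scanned (lower panel), with points for arrays and bars for group means. After normalization secondary Rb-depleted cells lie above control cells for let-7f, let-7a, let-7g and let-7e, whereas as scanned the mean of secondary cells lies below that of control cells for all 8 arms.

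Whether losing Rb alone changed the family was asked by comparing the groups grown only in monolayer, and no member passed the test. With limma and Benjamini-Hochberg adjustment over all miRNAs of the table, 0 of 10 let-7 rows had an adjusted p under 0.05, and 0 of 10 had an unadjusted p under 0.05. Of all miRNAs tested, 4 (1.59%) were called and 64 had an unadjusted p under 0.05 (25.4%). The median log2 difference of the 10 rows was 0.16, beside 0.01 over all miRNAs. It lay above 0 for 9 of 10 rows, beside 50.4% of all miRNAs. The groups of arrays did not overlap for 2 of 10 rows, let-7e and let-7d*, beside 57.5% of all miRNAs.

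let-7e was the major arm with the largest difference. Its normalized log2 values were 10.52 and 10.60 in control cells and 10.78 and 10.78 in primary Rb-depleted cells, a difference of 0.22 (SE 0.10, limma adjusted p 0.235). The equal values came from the normalization, which gave both arrays the same rank, since the scanned signals were 2035 and 1821. As scanned, the difference was 0.00 (SE 0.16).

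let-7a and let-7f were split within the primary Rb-depleted group. let-7a had normalized values of 12.604 and 12.72 in control cells and 12.72 and 13.03 in primary Rb-depleted cells. let-7f had 12.72 and 12.78 in control cells, and 12.78 and 13.14 in primary Rb-depleted cells. For both, the first array of primary Rb-depleted cells equalled the second control array and the second array lay above, so the groups touched. The differences were 0.21 for let-7a (SE 0.13) and 0.21 for let-7f (SE 0.15), with limma adjusted p of 0.366 and 0.437.

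The other major arms differed by 0.16 or less. let-7i was at 12.16 and 12.27 in control cells and at 12.27 and 12.48 in primary Rb-depleted cells, a difference of 0.16 (SE 0.11). let-7b was at 11.88 and 12.21 in control cells and at 12.16 and 12.21 in primary Rb-depleted cells, a difference of 0.14 (SE 0.12), and its lower value came from the first control array. let-7c, let-7d and let-7g differed by -0.01, 0.03 and 0.05, each by less than its standard error. With a standard error of 0.08 to 0.15 for the major arms, small differences in either direction could not be told from 0 with these arrays.

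Sphere-derived cells were then set against control, and 1 of the 10 rows passed: let-7a* rose by 0.60 (SE 0.14, limma adjusted p 0.0335), or 1.52-fold. Of all miRNAs tested, 57 were called (22.6%), 33 of them higher (13.1%), and the share of let-7 rows called was below both. Unadjusted p-values under 0.05 were found for 5 of 10 rows, beside 36.5% of all miRNAs, and the groups of arrays did not overlap for 6 of 10, beside 52% of all miRNAs. The median log2 difference was 0.26 over the 10 rows and 0.18 over the 8 major arms, beside 0.03 over all miRNAs, and 10 of 10 rows lay above 0, beside 53.6% of all miRNAs. As scanned, without normalization, 1 of 10 lay above 0, beside 12.7% of all miRNAs, with a median of -0.13 beside -0.46 over all miRNAs. On that scale 0 of 10 were called, beside 45.2% of all miRNAs, and 1 of 10 had an unadjusted p under 0.05, beside 55.2%. Relative to that shift the 10 rows lay between 0.07 and 0.56.

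let-7g, let-7a and let-7f were the major arms nearest to the threshold. let-7g was at 10.73 and 10.84 in control cells, at 10.73 and 10.95 in primary Rb-depleted cells, and at 11.13, 11.13 and 11.05 in secondary cells. The 3 secondary arrays lay above all 4 arrays of primary cells. The difference from control was 0.31 (SE 0.09, limma adjusted p 0.0659), or 1.24-fold, and that from primary Rb-depleted cells was 0.26 (SE 0.09, adjusted p 0.0939). As scanned, let-7g was lower in secondary than in control cells by a log2 of -0.12 (SE 0.13), and the groups overlapped.

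let-7a reached 13.14, 12.96 and 13.03 in secondary cells, above both control arrays and overlapping with the second array of primary Rb-depleted cells. It differed from control by 0.38 (SE 0.12, limma adjusted p 0.0782). let-7f reached 13.30, 13.03 and 13.14, with a difference of 0.40 (SE 0.14, limma adjusted p 0.104). The normalized values of let-7a and let-7f had a Pearson r of 0.990 over the 7 arrays. This is given as a description, since the pair differ by 1 base, share a cluster on chromosome 13 and were read from the same arrays. Over the 28 pairs of major arms r ran from -0.05 to 0.990, with a median of 0.556.

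let-7e was at 10.88, 10.66 and 10.78 in secondary cells, 0.21 above control (SE 0.09, limma adjusted p 0.152). let-7b, let-7c, let-7d and let-7i had differences of 0.15, 0.03, 0.08 and 0.12 and overlapped with control. The first secondary array, which shared its slide with the primary cells, had the highest normalized let-7a, let-7f and let-7e of the 7 arrays. The other slide held only secondary arrays, so with slide as a term the comparison with control rested on the first secondary array alone. In that limma fit the differences of let-7a, let-7f and let-7g from control were 0.48, 0.55 and 0.34. There 0 of 10 let-7 rows were called, beside 2.38% of all miRNAs, and 4 of 10 had an unadjusted p under 0.05, beside 30.2%.

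**Figure D2:**
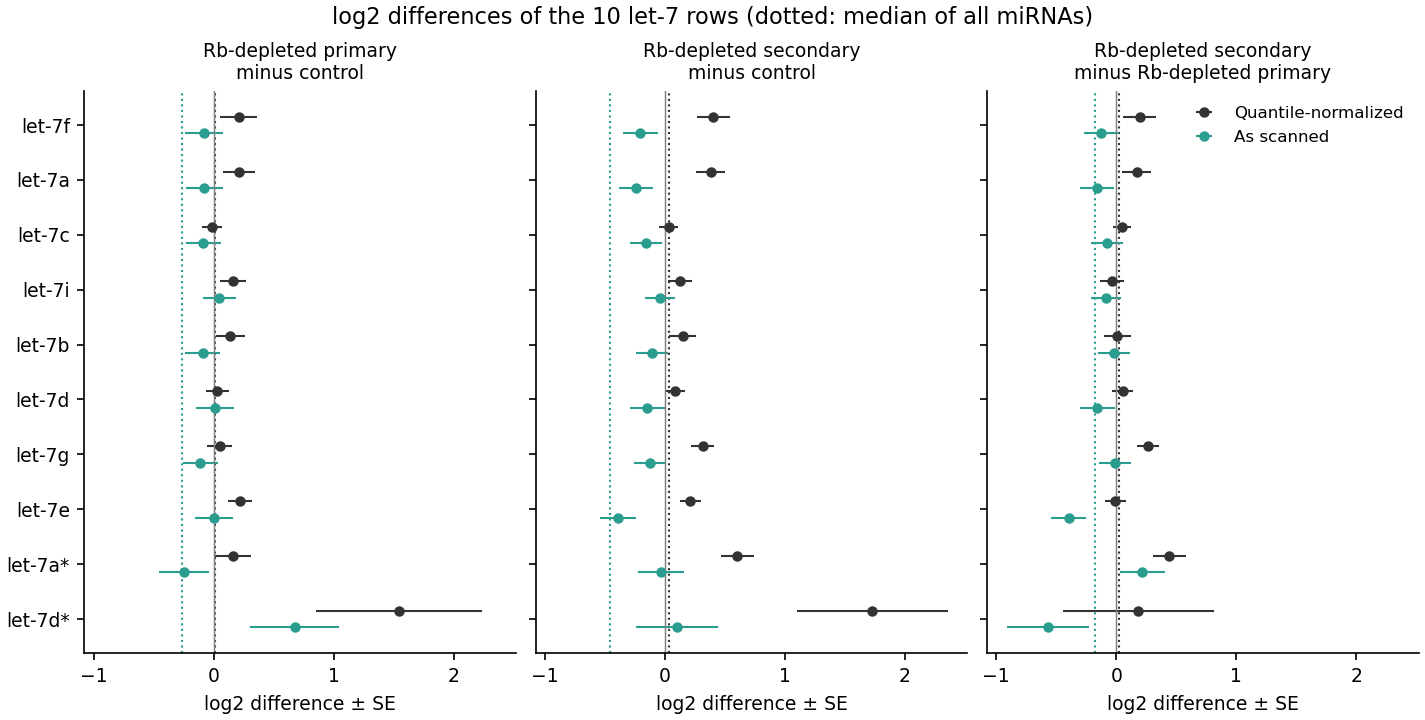
The log2 difference (point) with its standard error (bar) of the 10 let-7 rows in the 3 comparisons, from the quantile-normalized values and from the values as scanned, with dotted lines at the median of all miRNAs. Against control, 9 of 10 normalized differences in primary Rb-depleted and 10 of 10 in secondary Rb-depleted cells lie above 0, and 6 and 9 of 10 lie below 0 as scanned.

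With Rb depleted on both sides, secondary cells were compared with primary cells, and 0 of 10 rows passed (limma, Benjamini-Hochberg), while 51 miRNAs of the table did (20.2%). The unadjusted p was under 0.05 for 2 of 10, let-7a* and let-7g, beside 40.5% of all miRNAs. The same pair of rows had groups that did not overlap, beside 51.2% of all miRNAs. The differences of the major arms ran from -0.03 for let-7i to 0.26 for let-7g, and their median was 0.05.

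The moderated F-test over the 3 groups, at the study's adjusted p of 0.1, called let-7a* (adjusted p 0.0545) and let-7g (0.0845), which is 2 of 10 rows beside 43.3% of all miRNAs. After Dunnett's adjustment of both comparisons with control, 0 of 10 rows passed in both, while 17 miRNAs of the table did (6.75%).

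let-7a*, the only member called in a comparison of 2 groups, is a dim miRNA. Its normalized values were 4.26 and 4.34 in control cells, 4.61 and 4.32 in primary Rb-depleted cells, and 4.95, 5.04 and 4.72 in secondary cells. The secondary arrays were the 3 highest of the 7. Before normalization the signals were 24.4 and 26.9, then 25.7 and 18.1, then 27.7, 26.2 and 21.7, which overlap between all groups. As scanned, the difference of secondary from control cells was -0.03 (SE 0.19, limma adjusted p 0.890). A single probe of the 4 supplied the whole total gene signal on every array.

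The difference of let-7a* from control ran from 0.53 to 0.70 with each array left out in turn. Its call was lost without either control array, which left 1 control array, and without the first or second secondary array. For these 2 secondary arrays the limma adjusted p was 0.0935 and 0.0536, and 6.35% and 29.4% of all miRNAs were called. With slide as a term, which left 1 secondary array to set against control, the difference was 0.65 (SE 0.20, limma adjusted p 0.125). Within an array, let-7a* minus let-7a was -8.34 and -8.38 log2 units in control cells, -8.11 and -8.70 in primary Rb-depleted cells, and -8.18, -7.92 and -8.31 in secondary cells. The groups overlapped, and an exact permutation test over the 210 ways of assigning the 7 arrays gave p = 0.524, where the smallest possible is 0.00952.

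let-7d*, from the hairpin on chromosome 13, had the largest normalized differences from control of the 10 rows, and neither passed. Its normalized values were 0.82 and 1.69 in control cells, 2.27 and 3.32 in primary Rb-depleted cells, and 3.29, 1.95 and 3.70 in secondary cells. The 5 arrays of Rb-depleted cells lay above both control arrays. The differences from control were 1.55 in primary (SE 0.69, limma adjusted p 0.232) and 1.73 in secondary cells (SE 0.63, adjusted p 0.117).

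The total gene signal of let-7d* did not hold the same probes on every array. Its brighter probe read 6.40 and 6.63 in control cells, 6.33 and 6.44 in primary Rb-depleted cells, and 6.63, 4.47 and 7.11 in secondary cells. The total gene signal equalled this probe alone on both control arrays and on the first and second secondary arrays. On both arrays of primary Rb-depleted cells and on the third secondary array it equalled the sum of this probe and a dimmer one, at 10.66, 10.15 and 11.56. The dimmer probe itself read 4.35 and 4.42 in control cells, 4.33 and 3.71 in primary Rb-depleted cells, and 3.22, 2.97 and 4.46 in secondary cells. Neither probe was brighter on both arrays of primary Rb-depleted cells than on both control arrays. When both probes were summed on every array before normalization, a choice made after these values were seen, the differences from control were 0.08 in primary (limma adjusted p 0.963) and 0.49 in secondary cells (adjusted p 0.589).

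**Figure D3:**
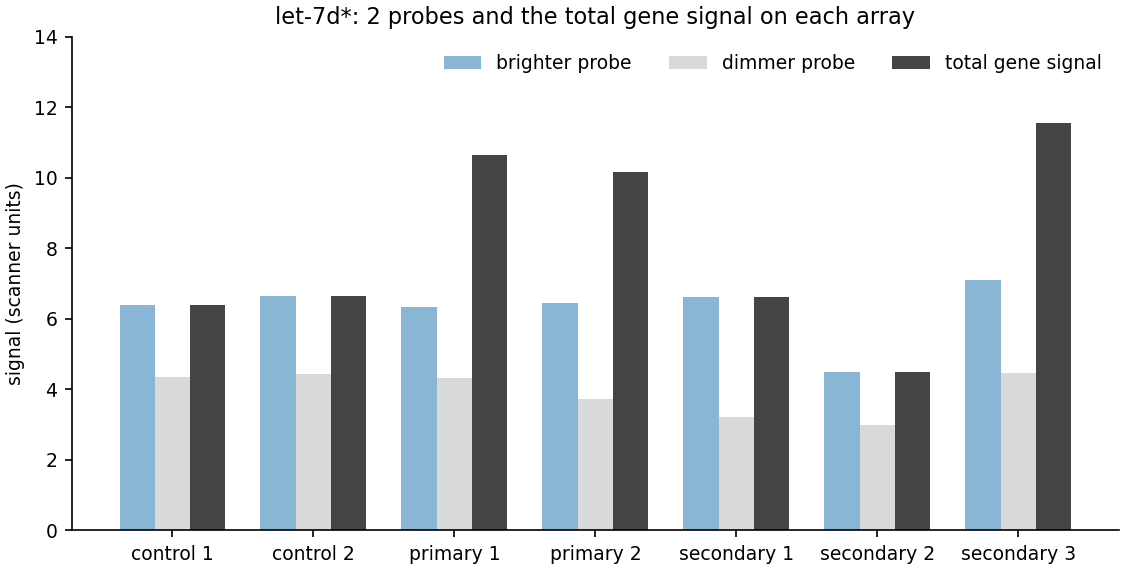
Signal of the brighter and the dimmer probe of let-7d* and the total gene signal, in scanner units, on each of 7 arrays. The total gene signal is the brighter probe alone on 4 arrays and the sum of both on primary 1, primary 2 and secondary 3, and the brighter probe lies between 6.33 and 6.63 on the 4 arrays of primary cells.

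Within an array, let-7d* minus let-7d was -10.4 and -9.74 log2 units in control cells, -9.11 and -8.02 in primary Rb-depleted cells, and -8.13, -9.48 and -7.69 in secondary cells. The exact permutation test over 210 splits gave p = 0.219. With both probes summed on every array the same exact permutation test gave p = 0.752.

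The make-up of the family was compared through the share of each major arm in the summed signal of the 8, which does not depend on a scaling between arrays. let-7f and let-7a supplied the most, at 20.2% to 21.7% and 19.0% to 20.5% over the 7 arrays. The shares of let-7e, let-7a and let-7g in secondary cells did not overlap with those of the 4 arrays of primary cells. Such gaps were common: control and primary Rb-depleted cells did not overlap for let-7a, let-7b, let-7e, let-7f, let-7g and let-7i. Primary and secondary Rb-depleted cells did not overlap for let-7b and let-7c either. The shares of an array add up to a whole, so they do not vary independently. let-7e held 5.01% and 4.95% in control cells, 5.26% and 5.12% in primary Rb-depleted cells, and 4.48%, 4.23% and 4.09% in secondary cells. All 3 secondary arrays lay below all 4 arrays of primary cells, and the array on the shared slide, at 4.48%, was among them.

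As scanned, both let-7e probes were on average lower in secondary than in control cells, as were both probes of every other major arm. From control, the let-7e probes differed by a log2 of -0.42 and -0.37 in secondary and 0.01 and -0.00 in primary Rb-depleted cells. On that scale the median of all miRNAs was -0.46 in secondary against control cells, and relative to it let-7e stood at 0.07. The fitted difference of let-7e as scanned was -0.39 in secondary cells against control (SE 0.15, limma adjusted p 0.0604) and -0.40 against primary Rb-depleted cells (SE 0.15, adjusted p 0.0869). Neither passed, and after normalization the value against control was 0.21, with the opposite sign.

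let-7i stood lowest in control cells. Its share was 13.3% and 13.1% in control cells, 13.7% and 14.6% in primary Rb-depleted cells, and 13.6%, 14.7% and 14.9% in secondary cells, so both control arrays lay below the 5 arrays of Rb-depleted cells. let-7g held 5.55% and 5.48% in control cells, 5.21% and 5.39% in primary Rb-depleted cells, and 5.74%, 5.70% and 5.63% in secondary cells, the highest of the 7. let-7a had shares of 20.2% and 20.5% in control cells, 20.02% and 20.07% in primary Rb-depleted cells, and 19.9%, 19.0% and 19.3% in secondary cells, which do not overlap. These shares were compared without a test.

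**Figure D4:**
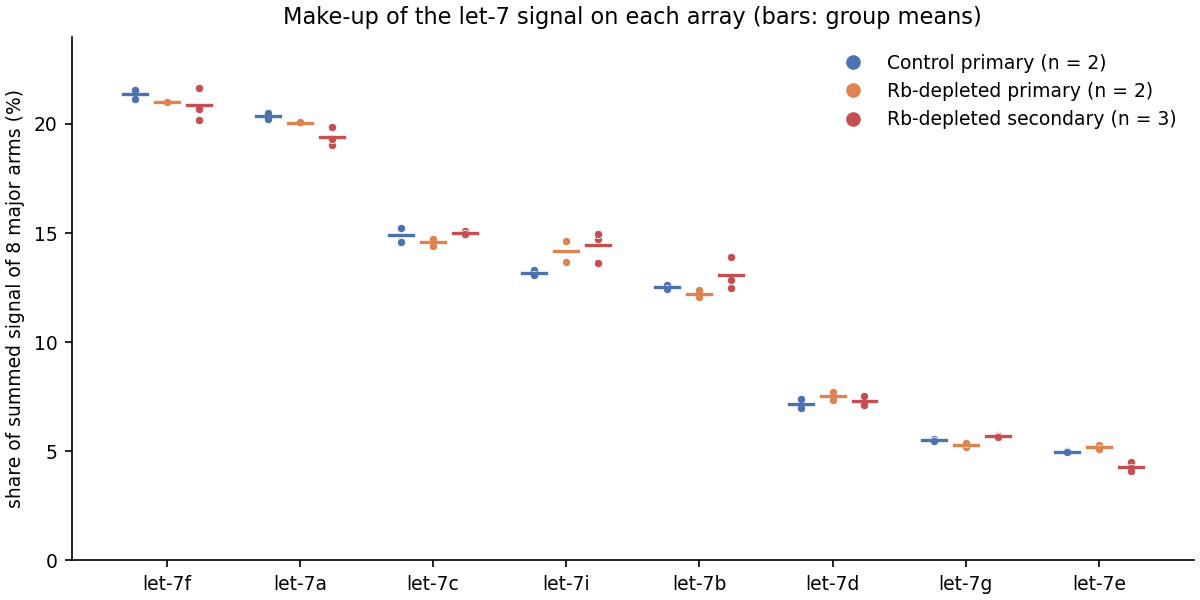
Share of each major arm in the summed total gene signal of the 8 major arms, in percent, on each of 7 arrays (points) with group means (bars). let-7e lies at 4.09% to 4.48% in secondary cells and at 4.95% to 5.26% in both groups of primary cells, and let-7i is lowest on the 2 control arrays.

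Relatives and cluster neighbours of let-7 were listed with the family. miR-98, which has the let-7 seed and lies beside let-7f-2, had normalized values of 8.61 and 8.61 in control cells, 8.72 and 8.72 in primary Rb-depleted cells, and 8.87, 8.61 and 8.61 in secondary cells. The related miR-202-3p, whose seed is GAGGUAU, differed from control by 0.14 in primary and -0.15 in secondary cells. In the comparison of secondary with control cells, limma called 1 of the 9 related rows, beside 22.6% of all miRNAs. This row was miR-125a-5p, the neighbour of let-7e. It was at 9.16 and 9.10 in control cells, 9.30 and 9.25 in primary Rb-depleted cells, and 9.48, 9.42 and 9.37 in secondary cells, a rise of 0.29 (SE 0.07, adjusted p 0.0402). Once slide entered the fit, so that the difference rested on the first secondary array alone, the call was lost (difference 0.35, SE 0.08, limma adjusted p 0.0916). The call held with quantile normalization of the table alone, the median spot signal and no moderation. Under scaling to the 75th percentile, all mouse miRNAs, trend and robust moderation and the replicate block the call was lost (limma adjusted p 0.313, 0.0549, 0.0556 and 0.148). It was also lost when any single array other than the second secondary one was left out, with limma adjusted p of 0.0617 without either array of primary Rb-depleted cells, 0.138 without either control array, and 0.0885 and 0.0826 without the first and the third secondary array. As scanned, miR-125a-5p differed by -0.24 (SE 0.15, adjusted p 0.197). After normalization 0 of the 9 rows were called in primary against control cells, beside 1.59% of all miRNAs. In secondary against primary Rb-depleted cells 0 were called, beside 20.2%. Unadjusted p-values under 0.05 numbered 0 and 3 in these comparisons, beside 25.4% and 40.5% of all miRNAs.

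Of the remaining neighbours, 0 were called against control by limma after normalization, and 0 had an unadjusted p under 0.05. Over all miRNAs the unadjusted share was 25.4% in primary Rb-depleted and 36.5% in secondary cells. miR-99a, miR-99b, miR-100 and miR-125b-5p differed from control by -0.02, 0.15, -0.15 and 0.21 in primary Rb-depleted and by 0.18, -0.07, -0.05 and 0.21 in secondary cells. The dim arms miR-99b* and miR-125a-3p, from hairpins flanking let-7e, differed by -0.39 and -0.49 in secondary cells, with limma adjusted p of 0.211 and 0.183. As scanned these arms fell by 1.11 and 1.06 on the log2 scale, with limma adjusted p of 0.00285 and 0.00591. miR-202-3p, miR-99b and miR-100 were called too, at -0.52, -0.51 and -0.62 (limma adjusted p 0.0222, 0.0240 and 0.0145). The calls as scanned thus covered 5 of the 9 related rows. On that scale 45.2% of all miRNAs were called and the median was -0.46, and let-7e itself differed by -0.39. The 5 rows of the miR-99b, let-7e and miR-125a hairpins thus ran from -1.11 to -0.24 as scanned.

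The miRNAs whose normalized values most resembled the mean of the major arms over the 7 arrays were miR-29a* (Pearson r 0.944), miR-20a* (0.941), miR-29b (0.866), miR-15b* (0.866) and miR-18a (0.864). They were picked for this likeness among the 242 miRNAs outside the family, from arrays that share their normalization. The mean of the major arms, each centred on its own mean, was -0.19 and -0.06 in control cells, -0.07 and 0.07 in primary Rb-depleted cells, and 0.13, 0.07 and 0.06 in secondary cells. The second array of primary Rb-depleted cells thus lay within the secondary arrays, and the first lay with the controls.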

How the data were processed

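MiRNA expression was measured with 7 1-colour arrays of Cy3-labelled total RNA. The authors deposited log2 values, quantile-normalized in GeneSpring (252 mouse miRNAs and 11 control rows, which were left out), and intensity values per spot and miRNA from Agilent Feature Extraction (10.7.3.1 in the submitters' processing notes, 11.0.1.1 in the file headers). Quantile normalization of the log2 total gene signal of 718 features, with no floor on the signal, gave the deposited log2 values within 3.2e-06. Signals under 1 were set to 1 only in the alternative with all mouse miRNAs, described below. Arrays give no count of reads, and precision is limited by how many arrays there are.

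All 252 miRNAs were fitted with limma 3.58.1 in R 4.3.3 with 3 group means and empirical Bayes moderation. Contrasts were called at a Benjamini-Hochberg adjusted p under 0.05 and the F-test at 0.1, with Dunnett's adjustment from mvtnorm 1.3.3. The fit was tested on simulated data. Differences between arms of a hairpin were tested by exact permutation (two-sided). Files were read with Python 3.11.15.

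The members, related miRNAs and marker lists were chosen with earlier results of these data known. All 10 let-7 rows and all listed relatives are named, and the 5 most similar miRNAs by Pearson r. Alternatives were scaling to the 75th percentile, quantile normalization of the table alone, no normalization, all mouse miRNAs (no filter on detection), the median spot signal, no moderation, trend and robust moderation, the replicate number as a block, slide as a term, and each array left out. Same-numbered arrays of the 3 groups correlated from -0.141 to 0.134 in their deviations from group means, so the numbers were not taken to pair them.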

Additional observations from a re-analysis of the deposited data

Results flagged for a closer look

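The 5 let-7 entries of the array outside the normalized table, all of them minor (3p) arms, were looked at because the comparisons do not use them. A signal above that of the control arrays was seen for 3 of them. let-7b-3p was detected on 1 of 7 arrays, the third array of Rb-depleted secondary cells, with a total gene signal of 6.88. let-7c-1-3p was detected on that same array alone, with 3.70. let-7f-1-3p had 8.44 and 11.02 in Rb-depleted primary cells, beside 7.34 on the second control array and 4.18 on the third secondary array, and was not detected on the other 3 arrays. These are dim signals, and the differences were not tested. let-7g-3p and let-7i-3p were detected on 0 of 7 arrays.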

How the results depend on the processing

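The 0 of 10 rows called in primary cells against control held under every alternative run. The single call in secondary cells against control, let-7a*, was lost under several settings. Under scaling to the 75th percentile, no normalization, no moderation, and trend and robust moderation 0 rows were called. Of all miRNAs 11.5%, 45.2%, 13.5% and 21.4% were called there, in that order. With the replicate number as a block and with slide as a term 0 rows were called as well, beside 1.59% and 2.38% of all miRNAs. With the median spot signal 3 rows were called (let-7a, let-7f and let-7g, at 0.38, 0.44 and 0.28), beside 24.6% of all miRNAs, while let-7a* was at 0.097 (limma adjusted p 0.112). On that signal 1 row (let-7g, 0.22) was called in secondary against primary Rb-depleted cells, beside 25.4%. The F-test called 0 rows under scaling to the 75th percentile, no moderation and slide, beside 30.6%, 24.6% and 9.52% of all miRNAs, 1 under no normalization and with all mouse miRNAs, beside 58.7% and 30.8%, 4 with trend and robust moderation, beside 45.2%, and 5 with the median spot signal, beside 44.4%. The cause of these changes was not tested.

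Without normalization the medians were -0.078, -0.13 and -0.11 in primary against control, secondary against control and secondary against primary Rb-depleted cells. In primary cells let-7a, let-7a*, let-7b, let-7f and let-7g turned to -0.077, -0.25, -0.092, -0.080 and -0.11. In secondary cells against control, let-7a, let-7a*, let-7b, let-7c, let-7d, let-7e, let-7f, let-7g and let-7i turned to -0.24, -0.033, -0.11, -0.16, -0.15, -0.39, -0.20, -0.12 and -0.038. Against primary Rb-depleted cells, let-7a, let-7b, let-7c, let-7d, let-7d*, let-7f and let-7g turned to -0.16, -0.017, -0.074, -0.16, -0.57, -0.12 and -0.011. The median of all miRNAs was itself negative on that scale, and relative to it let-7d* in secondary against primary Rb-depleted cells remained at -0.39. The cause was not tested.

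Other reversals were small and uncalled. In primary cells against control, let-7c became 0.15 under scaling to the 75th percentile, 0.046 under quantile normalization of the table alone and with all mouse miRNAs, and 0.10 with the median spot signal, and let-7a* became -0.014 under scaling to the 75th percentile. In secondary against primary Rb-depleted cells, let-7i became 0.13, 0.047, 0.047 and 0.10 under the same 4 settings. let-7d* became -0.35 under scaling to the 75th percentile, -0.29 under quantile normalization of the table alone and -0.011 with the median spot signal. let-7e became 0.10 with slide as a term, where the first secondary array alone stood for secondary cells. With the median spot signal the change of star minus major arm from control to secondary cells became -0.29 for let-7a and -0.14 for let-7d.

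With the replicate number as a block, the call of let-7a* in secondary cells was lost (0.70, limma adjusted p 0.104), so 0 rows were called, beside 1.59% of all miRNAs. The F-test then called 0 rows, beside 2.38%, and let-7d* in secondary against primary Rb-depleted cells became -0.18. The block changed no other call. Whether same-numbered arrays belong together is not known. Only secondary cells have an array numbered 3, so with the block that array did not enter the differences between groups. For miR-125a-5p the difference of secondary cells from control was 0.318 with the block and also with that array left out. The block is therefore no test of pairing over all arrays, and why the call was lost was not tested.

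Leaving out a control or primary Rb-depleted array left 1 array in that group, so counts are given for the secondary arrays only. In secondary cells against control, 0 let-7 rows were called without secondary array 1, beside 6.35% of all miRNAs. The count was 1 without array 2 and 1 without array 3, beside 29.4% and 10.3%. The F-test called 0, 3 and 1 rows without arrays 1, 2 and 3, beside 21%, 49.2% and 22.6% of all miRNAs. The F-test counts thus rose and fell with the share over all miRNAs. Without the second secondary array let-7d* passed in secondary cells (2.24, limma adjusted p 0.0358). With each of the arrays left out in turn, the median ran from 0.058 to 0.23 in primary cells. In secondary against primary Rb-depleted cells it ran from 0.0092 to 0.19. Ranges that crossed 0 in primary cells were -0.026 to 0.31 for let-7b, -0.056 to 0.027 for let-7c, -0.065 to 0.13 for let-7d and -0.055 to 0.16 for let-7g. In secondary cells against control they were -0.017 to 0.32 for let-7b and -0.013 to 0.18 for let-7d. In secondary against primary Rb-depleted cells they were -0.017 to 0.035 for let-7b, -0.34 to 0.70 for let-7d*, -0.061 to 0.050 for let-7e and -0.14 to 0.071 for let-7i. Where a group kept 1 array, limma assumed that it varied like the others.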
